A study of Mus musculus with 10 samples.

Results

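The core of the NRF2 antioxidant response was read in 10 genes, all found by symbol among the 52550 genes of the deposited table. They are Nfe2l2, which encodes the transcription factor NRF2, its repressor Keap1, and the 8 target genes Nqo1, Hmox1, Gclc, Gclm, Txnrd1, Srxn1, Slc7a11 and Gsr. The rule takes them by symbol and uses no measured value, but the members were chosen with earlier results of these data known. All 10 passed the filter on low counts that left 13615 genes for testing. RNA was sequenced from cultured mouse embryonic fibroblasts (MEFs), which are primary cells grown from dissociated embryonic tissue. There were 5 libraries from male and 5 from female C57BL/6 embryos of embryonic day 14 (E14), all at passage 3 (P3). Cells were grown in DMEM with 10% fetal bovine serum, and no compound that activates NRF2 is named for either group, so the levels are those of cultures without a stated stimulus. The total RNA was depleted of ribosomal RNA before library preparation, and the study asked which genes differ between the sexes. The labels do not state if replicates are different embryos or cultures, so p-values measure the spread between these libraries, which may be technical.

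In cells at rest, KEAP1 holds NRF2 in the cytoplasm and presents it to a ubiquitin ligase for degradation. Oxidants and electrophiles modify cysteines of KEAP1, NRF2 escapes destruction, enters the nucleus and, with a small MAF protein, binds antioxidant response elements near its target genes. The pathway is controlled largely at the level of the NRF2 protein, and the targets make glutathione, reduce thioredoxin and peroxiredoxins, detoxify quinones and break down heme.

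Antioxidant response elements carry the core TGACNNNGC, which overlaps in part with the AP-1 type motif TGANTCA, and the 2 are joined in TGANTCAGC. These letters were searched on both strands of the 250 bases before each start site in the RefSeq promoter table (GRCm38.p6), which had entries for 7 of the 10 members in 9 windows. TGACNNNGC occurred in 10.2% of the 32851 promoters of the table, TGANTCA in 6.75% and TGANTCAGC in 1.02%. The stretches of 4 members that held a match are shown on the strand of the gene, 5′ to 3′, with the matched letters in capitals. The windows of Nfe2l2, Gclm and Txnrd1 hold the core TGACNNNGC. That of Srxn1 holds the AP-1 type letters, in 1 place within the joined TGANTCAGC, and not TGACNNNGC.
Nfe2l2, chr2:75704880-75704913, minus strand: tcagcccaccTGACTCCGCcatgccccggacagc
Srxn1, chr2:152105407-152105502, plus strand: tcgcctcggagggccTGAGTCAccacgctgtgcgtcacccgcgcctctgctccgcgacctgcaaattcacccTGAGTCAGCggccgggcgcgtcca
Gclm, chr3:122245408-122245446, plus strand: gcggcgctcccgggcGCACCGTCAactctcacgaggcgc
Txnrd1, chr10:82859099-82859137, plus strand: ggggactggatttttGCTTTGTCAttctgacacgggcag
The Nfe2l2 match began 240 bases before the start site. Srxn1 held TGANTCA at 102 and at 45 bases before its start, and the nearer one continued into TGANTCAGC. Gclm at 134 bases and Txnrd1 at 92 bases carried TGACNNNGC on the opposite strand, so the capitals show its reverse complement, and the Txnrd1 match lay before only one of its 3 listed starts. The windows of Keap1, Nqo1 and Slc7a11 held none of the 3 motifs, which says only that these letters are not in these windows. Hmox1, Gclc and Gsr are named without a sequence.

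Each library had between 22588200 and 32744611 reads placed uniquely on exons, and between 22.5% and 28.6% of unique gene reads lay in introns. The labels of sex held in all 10 libraries: Xist reached 22.8 to 36.8 counts per 1000000 scaled reads (CPM) in females and at most 0.0736 CPM in males, and the Y-linked Ddx3y reached 66.6 to 84.5 CPM in males and at most 0.15 CPM in females. Fibroblast markers summed to between 31537 and 39229 CPM. Across all genes, 16 of 13615 differed between the sexes at an adjusted p under 0.05 (edgeR's quasi-likelihood test, Benjamini-Hochberg), 6 higher and 10 lower in females. None of 11 library measures (depth, intron share, ribosomal and mitochondrial shares, summed marker levels) differed between the sexes in a two-sided exact permutation test, with adjusted p between 0.491 and 0.802 and a smallest reachable p of 0.00794.

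The 10 transcripts spanned a wide range of levels, given here as CPM per kb of exon so that genes can be compared. Hmox1 was the most abundant at 164 ± 31.6 (SD, n = 10), followed by Txnrd1 at 57.6 ± 7.81. Nfe2l2 itself stood at 29.1 ± 2.60 and Srxn1 at 27.9 ± 3.45. Hmox1 exceeded Txnrd1 2.84-fold on this scale and their ranges did not overlap. Without division by exon length (1751 bases for Hmox1, 7086 for Txnrd1) Txnrd1 had the higher mean, 408 against 286 CPM. Nfe2l2 and Srxn1 overlapped in range and Nfe2l2 was the higher in 7 of 10 libraries. Gsr followed at 20.1 ± 1.00, Nqo1 at 13.4 ± 2.89 and Gclc at 10.2 ± 0.99 CPM per kb. Nqo1 and Gclc overlapped in range, with Nqo1 the higher in 9 of 10 libraries. Keap1 was measured at 8.04 ± 0.56, Gclm at 4.08 ± 0.40 and Slc7a11, the lowest, at 0.93 ± 0.24 CPM per kb. Every other pair of neighbours in this order was separated without overlap. Uniquely placed reads were 48.3% of the exon reads of Gclm and 72.5% of those of Keap1, so both stood higher when all exon reads were counted. On that count, scaled to the library total, Keap1 was at 9.50 ± 0.50 and above Gclc at 8.78 ± 0.89 CPM per kb in 7 of 10 libraries, with overlapping ranges. Of the 2 subunits of glutamate-cysteine ligase, the catalytic Gclc lay above the modifier Gclm in 10 of 10 libraries by either count, Gclm being at 7.27 ± 0.59 CPM per kb with all exon reads.

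**Figure D1:**
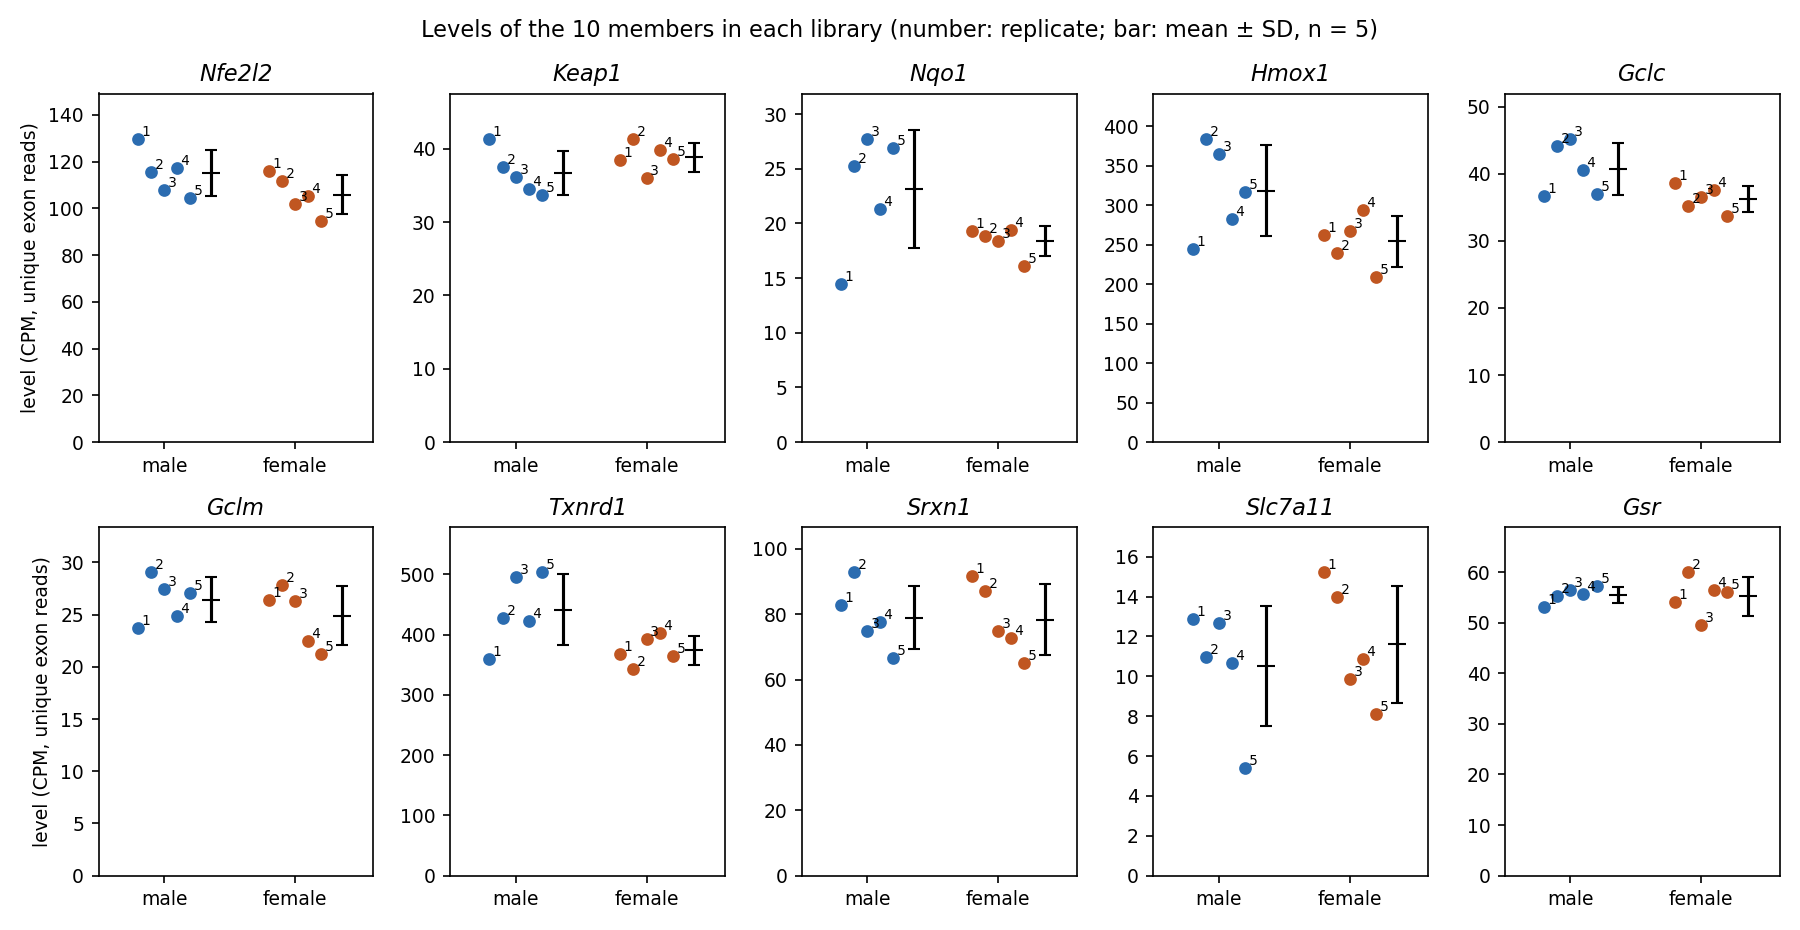
Level of each of the 10 genes in CPM from unique exon reads (y axes from 0, one scale per gene) in the 5 male (blue) and 5 female (orange) libraries, with the replicate number at each point and a bar for the mean ± SD. The sexes overlapped for every gene; in Nqo1 and Txnrd1 male replicate 1 lay among or under the females while the other 4 males lay above them all.

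Nfe2l2 (ENSMUSG00000015839, chr2:75675513-75704641, minus strand, mm10) encodes the factor that drives the response. Its level in male replicates 1 to 5 was 129.6, 115.7, 108.0, 117.2 and 104.2 CPM, and in female replicates 1 to 5 it was 115.8, 111.6, 101.8, 105.4 and 94.4 CPM. The highest library was male replicate 1 and the lowest female replicate 5, and the sexes overlapped. Means were 115.0 ± 9.80 in males and 105.8 ± 8.38 in females (SD, n = 5 each), and the log2 fold change, female minus male, was -0.12 (SE 0.07, 95% interval -0.26 to 0.02, edgeR adjusted p = 0.735).

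Keap1 (ENSMUSG00000003308, chr9:21229730-21239361, minus strand) encodes the repressor. It stood at 41.3, 37.5, 36.1, 34.6 and 33.7 CPM in the 5 male libraries and at 38.4, 41.3, 36, 39.9 and 38.6 CPM in the 5 female libraries. Male replicates 4 and 5 were the lowest, and male replicate 1 was level with the highest female. The log2 fold change was 0.08 (SE 0.06, interval -0.05 to 0.22, edgeR adjusted p = 0.828). Of its exon reads 72.5% were placed uniquely, and an antisense gene that overlaps it, Gm16754, had 9 unique exon reads over all libraries against 10513 for Keap1.

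Nqo1 (ENSMUSG00000003849, chr8:107388225-107403206, minus strand) encodes the quinone reductase that is the usual reporter of NRF2 activity. It was measured at 14.5, 25.3, 27.7, 21.4 and 26.9 CPM in male libraries and 19.3, 18.8, 18.4, 19.4 and 16.1 CPM in females. The sexes overlapped: 4 of 5 males lay above every female, but male replicate 1 was the lowest of all 10 libraries. Means were 23.2 ± 5.43 in males and 18.4 ± 1.36 CPM in females (SD, n = 5 each). The log2 fold change was -0.33 (SE 0.15, interval -0.65 to -0.02, edgeR adjusted p = 0.655). Without male replicate 1 the estimate was -0.46 with an adjusted p of 0.0542 by edgeR. The range with 1 library left out was -0.46 to -0.26, the latter without male replicate 3 (edgeR adjusted p = 0.983).

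Hmox1 (ENSMUSG00000005413, chr8:75093621-75100589, plus strand) encodes heme oxygenase 1, which opens the heme ring and releases iron, biliverdin and carbon monoxide. Male libraries held 245, 384, 365, 282 and 316 CPM and female libraries 262, 239, 268, 294 and 209 CPM. Male replicates 2, 3 and 5 were above all females, male replicates 1 and 4 were among them, and female replicate 5 was the lowest of the 10. The means were 319 ± 57.4 and 254 ± 32.0 CPM, with a log2 fold change of -0.33 (SE 0.13, interval -0.61 to -0.04, edgeR adjusted p = 0.616). Without male replicate 1 it was -0.41 with an adjusted p of 0.203 by edgeR. The range with 1 library left out was -0.41 to -0.25, the latter without male replicate 2 (edgeR adjusted p = 0.797). In the authors' deposited table Hmox1 had the smallest p of the 10 genes, 0.0072, with a false discovery rate of 0.813.

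Glutathione is built from cystine taken up by SLC7A11, by glutamate-cysteine ligase (catalytic subunit Gclc, modifier subunit Gclm), and is kept reduced by glutathione reductase (Gsr). Gclc (ENSMUSG00000032350, chr9:77754535-77794485, plus strand) stood at 36.7, 44.1, 45.2, 40.6 and 37.0 CPM in the male libraries and 38.6, 35.2, 36.5, 37.6 and 33.7 CPM in females. Male replicates 2, 3 and 4 were above every female and male replicates 1 and 5 among them. Its log2 fold change was -0.17 (SE 0.07, interval -0.31 to -0.02, edgeR adjusted p = 0.615).

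Gclm (ENSMUSG00000028124, chr3:122245557-122270732, plus strand) was measured at 23.7, 29.0, 27.5, 24.9 and 27.1 CPM in the male libraries and 26.4, 27.9, 26.3, 22.5 and 21.3 CPM in females. The sexes were mixed over most of the range, with female replicates 4 and 5 the lowest, and the log2 fold change was -0.09 (SE 0.08, interval -0.27 to 0.09, edgeR adjusted p = 0.870). Counted with the reads that also matched elsewhere, Gclm gave -0.13 (SE 0.06, edgeR adjusted p = 0.685). The gene overlaps a processed pseudogene on its own strand, Gm6061, which had 0 unique exon reads, and Gm17494 on the other strand, which had 18 over all libraries. Where the other exon reads of Gclm also matched was not examined, so the division of its reads is uncertain.

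Slc7a11 (ENSMUSG00000027737, chr3:49892526-50443614, minus strand), the cystine and glutamate exchanger, had the widest range of the 10. Males held 12.9, 10.98, 12.7, 10.7 and 5.43 CPM and females 15.2, 13.96, 9.88, 10.9 and 8.09 CPM. Its lowest library was male replicate 5 and its highest female replicate 1, a 2.80-fold range, and the log2 fold change was 0.14 (SE 0.24, interval -0.37 to 0.66, edgeR adjusted p = 0.942). Gsr (ENSMUSG00000031584, chr8:33652523-33698163, plus strand) had the narrowest range over the 10 libraries. It lay between 53.1 and 57.3 CPM in males and between 49.5 and 59.9 CPM in females, a 1.21-fold range, with a log2 fold change of -0.01 (SE 0.06, interval -0.13 to 0.11, edgeR adjusted p = 0.985).

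Thioredoxin reductase 1 (Txnrd1, ENSMUSG00000020250, chr10:82833951-82897712, plus strand) keeps cytosolic thioredoxin reduced. It was measured at 359, 428, 495, 423 and 503 CPM in the male libraries and 368, 342, 393, 402 and 365 CPM in females. As with Nqo1, 4 of 5 males were above every female, and male replicate 1 was below all but one of them. Means were 441 ± 59.2 and 374 ± 24.0 CPM, with a log2 fold change of -0.24 (SE 0.08, interval -0.42 to -0.06, edgeR adjusted p = 0.456). Without male replicate 1 the estimate was -0.30 with an adjusted p of 0.0909 by edgeR. The range with 1 library left out was -0.30 to -0.19, the latter without male replicate 5 (edgeR adjusted p = 0.728).

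Sulfiredoxin (Srxn1, ENSMUSG00000032802, chr2:152105516-152111376, plus strand) repairs overoxidized peroxiredoxins. It stood at 82.9, 92.8, 74.8, 77.7 and 66.7 CPM in the male libraries and 91.7, 87.2, 74.9, 72.7 and 65.2 CPM in females. Both sexes covered the same range, with replicate 5 of each sex the lowest, and the log2 fold change was -0.01 (SE 0.10, interval -0.23 to 0.21, edgeR adjusted p = 0.993).

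Of these tests, none called a member: 0 of the 10 genes passed an adjusted p of 0.05 by edgeR, by DESeq2 or by limma-voom, beside 0.118% of all tested genes by edgeR (0.0441% higher and 0.0734% lower in females). At an unadjusted p under 0.05, 4 of 10 were lower in females by edgeR (Nqo1, Hmox1, Gclc and Txnrd1) and 0 were higher, where 4.44% of all tested genes were lower and 2.99% higher. Only Txnrd1 of these 4 stayed under 0.05 by edgeR when male replicate 2, male replicate 3, female replicate 2 or female replicate 5 was left out. Levels of the 4 also rose and fell together between libraries (r from 0.62 to 0.89), so they are not 4 separate observations. Of the 10 log2 fold changes 8 were negative, with a median of -0.10, beside 48.7% negative and a median of 0.003 over all tested genes. No member separated the sexes without overlap, which 184 genes (1.35%) did.

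**Figure D2:**
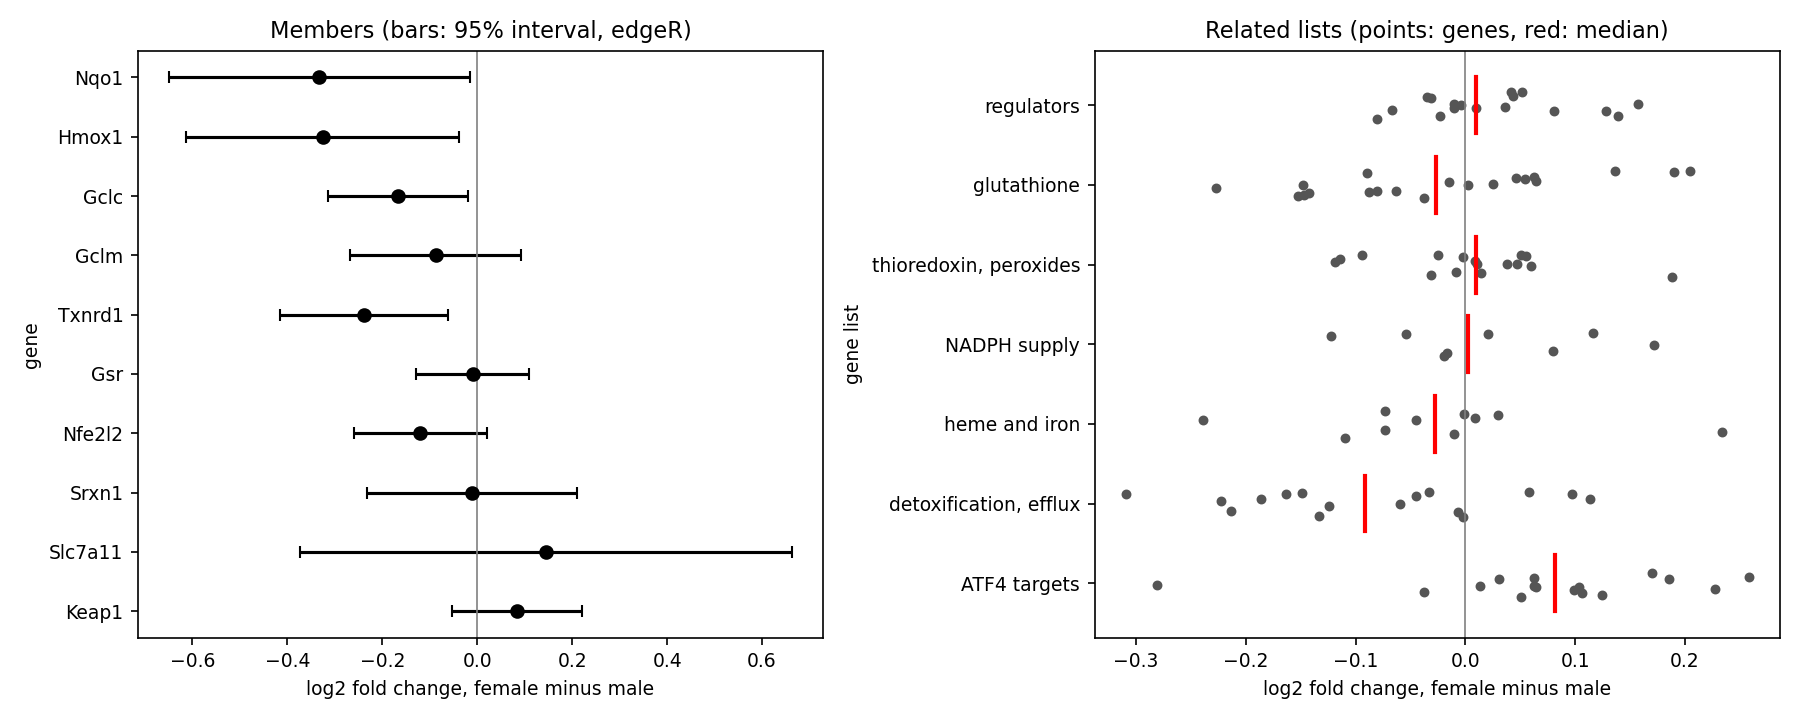
Log2 fold change, female minus male, of the 10 genes with 95% intervals (left) and of the genes of 7 related lists with the median of each list in red (right). The intervals of Nqo1, Hmox1, Gclc and Txnrd1 lay below 0 before adjustment, and the list medians lay between -0.09 and 0.08.

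The spread between libraries of one sex differed among the members. In males the coefficient of variation was 23.4% for Nqo1, 18.02% for Hmox1 and 28.7% for Slc7a11, against 2.83% for Gsr. Over the 8685 tested genes with at least 10 CPM the median was 7.13% in males and 7.32% in females. In females Nqo1 varied by 7.38%, near that median, while Hmox1 varied by 12.6% and Slc7a11 by 25.3%, and Gsr at 6.93% varied more than Keap1 (5.07%), Gclc (5.36%) and Txnrd1 (6.42%). The difference in spread of Nqo1 between the sexes was not tested.

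**Figure D3:**
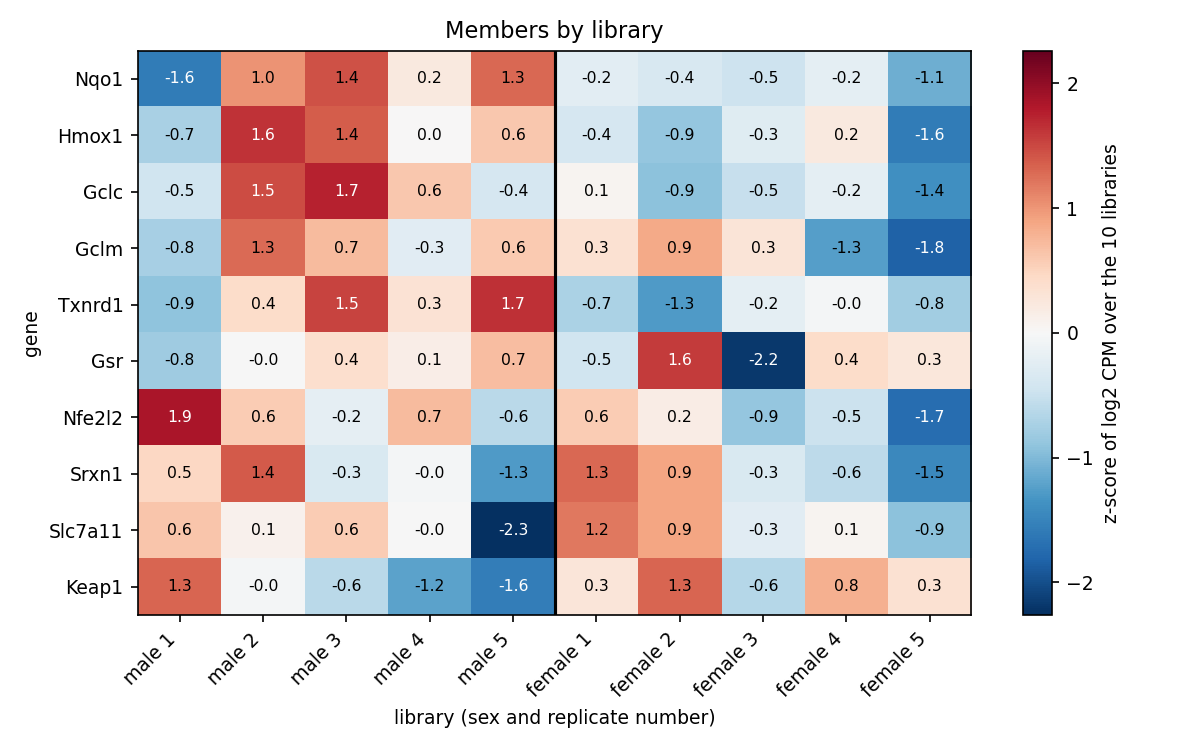
Z-score of log2 CPM over the 10 libraries (colour and number) for each gene (rows) in each library (columns, males left of the line). Male replicate 1 combined the highest Nfe2l2 (1.9) with the lowest Nqo1 (-1.6), and male replicate 5 combined the highest Txnrd1 (1.7) with the lowest Slc7a11 (-2.3).

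Across the libraries, r between 2 targets ranged from -0.51 (Txnrd1 with Slc7a11) to 0.89 (Hmox1 with Gclc). The r of Txnrd1 with Slc7a11 was -0.10 without male replicate 5 and -0.75 without male replicate 3. Every target pair with an r of at least 0.7 lay among Nqo1, Hmox1, Gclc and Txnrd1, apart from Srxn1 with Slc7a11. Gclc with Txnrd1 (0.623) was below Nqo1 with Gclm (0.666) and Hmox1 with Gclm (0.627). With total exon reads Gclm had an r of 0.850 with Hmox1 and 0.792 with Gclc. The highest r of Gsr with any member was 0.33 over all 10 libraries. Without female replicates 2 and 3, the farthest from its median, the r of Gsr ranged from -0.77 (Nfe2l2) to 0.73 (Txnrd1). Of the 45 pairs of members, 3 passed an adjusted p of 0.05 for Pearson's r of log2 CPM (permutation test, 100000 resamples, two-sided, Benjamini-Hochberg over 45 pairs), and all 3 were positive. Over the 28 pairs of targets the median r was 0.29, beside -0.0006 over all pairs of tested genes. An r of at least 0.7 was found in 7 of 45 pairs and in 2.60% of all pairs of tested genes, and an r of -0.7 or less in 1 of 45 pairs and in 2.50% of all pairs.

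Hmox1 and Gclc had the highest r, 0.885 (permutation p = 0.00086, adjusted 0.0223) with a rho of 0.818 (adjusted permutation p = 0.0679). Male replicates 2 and 3 were highest in both genes and female replicate 5 lowest in both, and without those 2 male libraries, the farthest from the median, r was 0.681. Nqo1 and Txnrd1 had an r of 0.878 (permutation p = 0.00099, adjusted 0.0223) and a rho of 0.891 (adjusted permutation p = 0.0265). Male replicates 3 and 5 were highest in both, and r was 0.728 without them. Nqo1 and Hmox1 had an r of 0.868 (permutation p = 0.00162, adjusted 0.0243) and a rho of 0.867 (adjusted permutation p = 0.0327), with an r of 0.842 without male replicates 3 and 5.

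To take the sex of the libraries out of these relations, each sex mean was subtracted. The r was then 0.815 for Hmox1 with Gclc, 0.836 for Nqo1 with Txnrd1 and 0.819 for Nqo1 with Hmox1, each with an adjusted permutation p of 0.106, and 0 of 45 pairs passed. None of these 3 pairs passed when male replicate 3 was left out (adjusted permutation p from 0.0559 to 0.0605) or when female replicate 5 was (adjusted permutation p from 0.0727 to 0.0889), with r between 0.826 and 0.870. Without any other single library all 3 passed, at adjusted permutation p of up to 0.049, close to the threshold.

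A further 3 pairs had an adjusted permutation p of 0.0508. Hmox1 with Txnrd1 had an r of 0.794, and its rho of 0.903 passed (adjusted permutation p = 0.0265). Srxn1 with Slc7a11 had an r of 0.763 and a rho of 0.745 (adjusted permutation p = 0.112), and r was 0.789 after each sex mean was subtracted. Keap1 with Txnrd1 was the one strongly negative pair, with an r of -0.80 and a rho of -0.79 (adjusted permutation p = 0.0778), -0.72 without male replicates 4 and 5 and -0.74 after each sex mean was subtracted. The repressor was lowest in male replicate 5, where Txnrd1 was highest, and high in male replicate 1 and female replicate 2, where Txnrd1 was lowest.

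Nfe2l2 mRNA had an r of -0.12 and a rho of -0.01 with Nqo1 (adjusted permutation p = 0.912 and 1). With Txnrd1 its r was -0.18 and its rho -0.16 (adjusted permutation p = 0.875 and 0.820). After each sex mean was subtracted, r was -0.49 with Nqo1 (adjusted permutation p = 0.415) and -0.73 with Txnrd1 (adjusted permutation p = 0.119), so neither pair passed in either form. Its r with Srxn1 was 0.721 and the rho 0.733 (adjusted permutation p = 0.102 and 0.112), and r was 0.754 without male replicate 1 and female replicate 5. Male replicate 1 was the library that set Nfe2l2 most apart from Nqo1: without it their r was 0.387, and without female replicate 5 it was -0.48. Srxn1 and Txnrd1, both enzymes of the thioredoxin and peroxiredoxin system, had an r of -0.37 and a rho of -0.25 (adjusted permutation p = 0.590 and 0.746). Their r was -0.15 without male replicate 5 and -0.62 without female replicate 5.

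**Figure D4:**
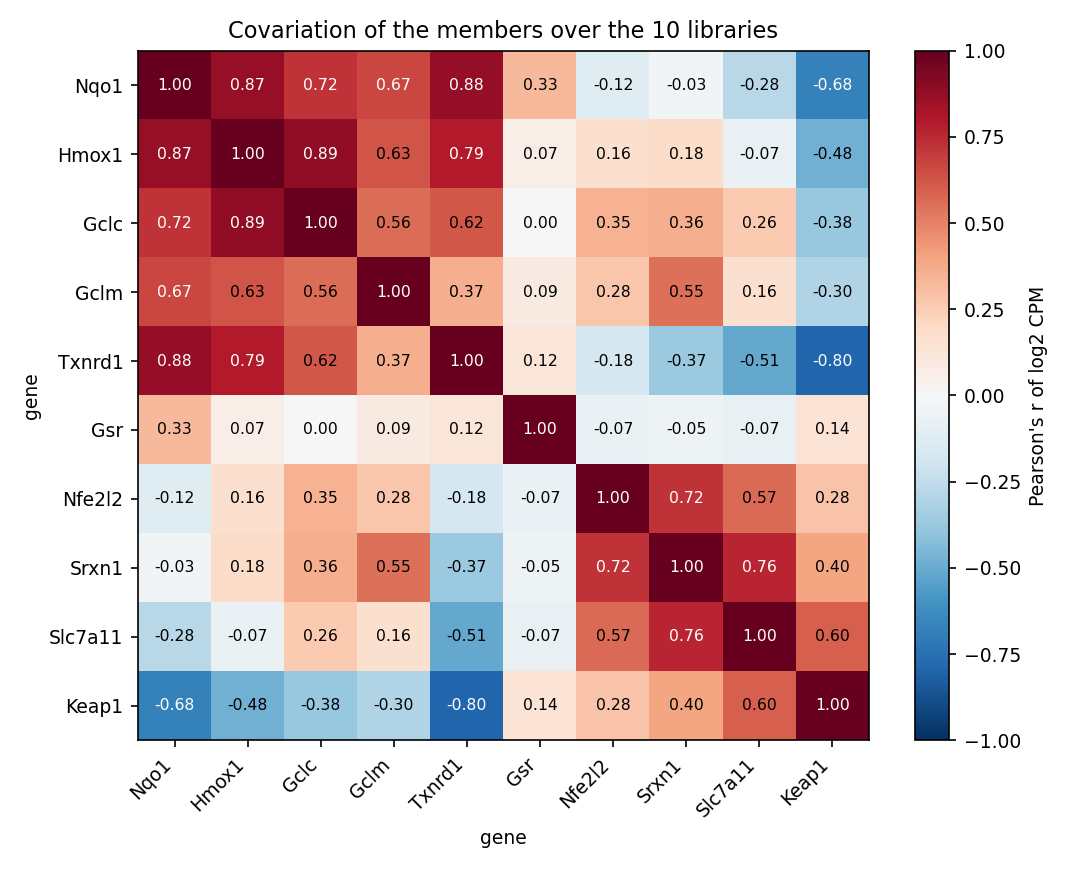
Pearson's r of log2 CPM over the 10 libraries for each pair of the 10 genes (colour and number). The order of the genes was set by hand, without clustering, so the blocks are a way of drawing and not a result. Nqo1, Hmox1, Gclc, Gclm and Txnrd1 were placed in the upper block, with r from 0.37 to 0.89. Nfe2l2, Srxn1 and Slc7a11 were placed in the lower one, with r from 0.57 to 0.76, where no pair passed the test. Gclm had a higher r with Srxn1 (0.55) than with Txnrd1 (0.37). Keap1 was negative with each gene of the upper block.

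**Figure D5:**
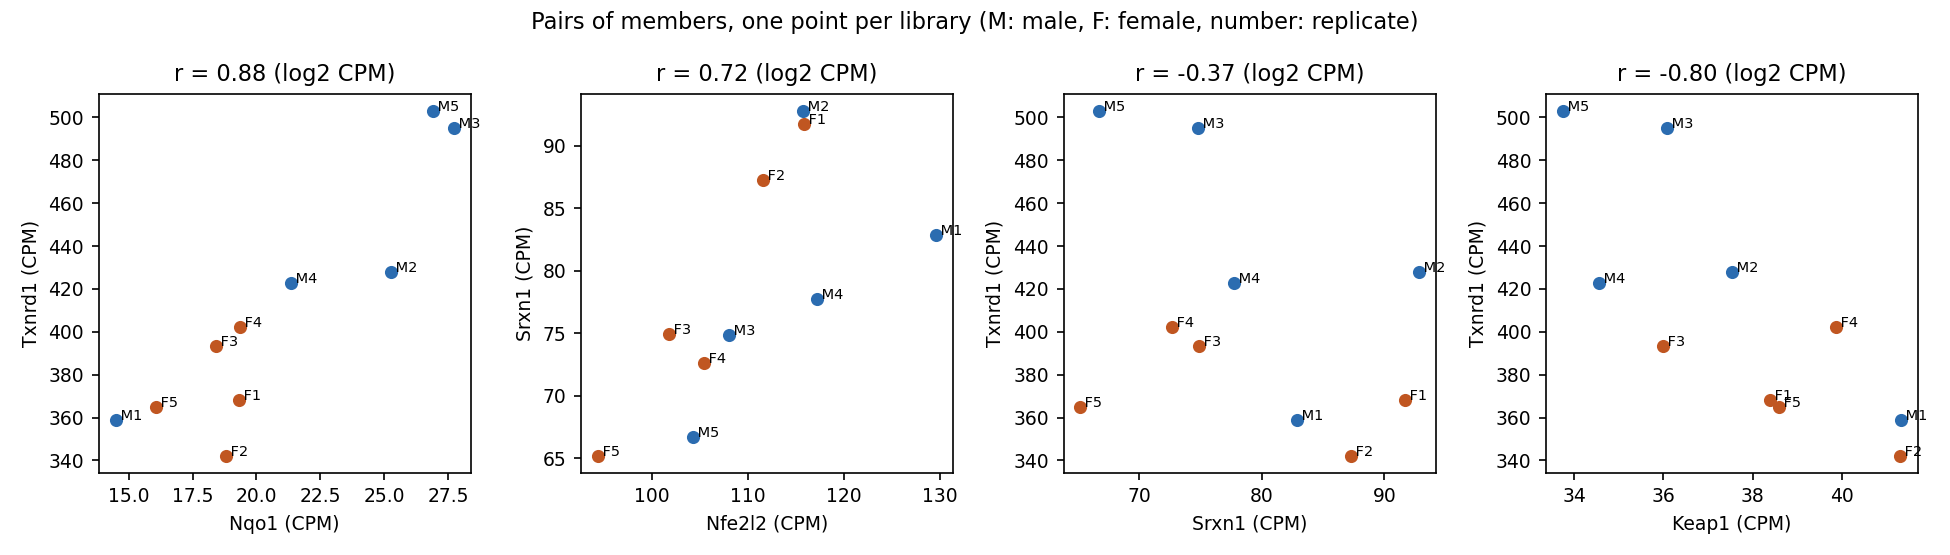
Levels in CPM of 4 pairs of genes, 1 point per library (M male, F female, with the replicate number; axes do not start at 0). The r of log2 CPM was 0.88 for Txnrd1 with Nqo1, which passed the test, and 0.72 for Srxn1 with Nfe2l2, -0.37 for Txnrd1 with Srxn1 and -0.80 for Txnrd1 with Keap1, which did not.

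The mean z-score of the 8 targets was highest in male replicates 3 (0.93) and 2 (0.91) and lowest in female replicate 5 (-1.10), with male replicate 1 at -0.52 and female replicate 3 at -0.50. Outside the pathway lists, the 5 genes of at least 10 CPM whose r with this score over the 10 libraries was highest were Ccnd1 (0.939), the cyclin D1 gene, Fbxo25 (0.902), an F-box protein gene, the junctional adhesion gene Jam2 (0.901), the limb patterning gene Hoxa11 (0.898) and the matrix protein gene Ecm1 (0.898). They were chosen for that likeness and are given with no test. Their log2 fold changes between the sexes ranged from -0.36 to -0.08 and none passed the test.

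Depletion of ribosomal RNA leaves unspliced transcripts in the libraries, so intron reads gave a second count for each gene. Over the 10 libraries, exon and intron levels of Txnrd1 had an r of 0.889 (permutation p = 0.00073, adjusted over 10 genes 0.0073) and a rho of 0.891 (adjusted permutation p = 0.012), and r was 0.781 without male replicates 3 and 5. For Hmox1 the r was 0.822 and the rho 0.855 (adjusted permutation p = 0.0207 and 0.0133), and r was 0.844 without male replicates 2 and 3. The other 8 genes did not pass; Nfe2l2 had an r of 0.739 (rho 0.515, adjusted permutation p = 0.0555 and 0.336). The median r of exon with intron levels, which come from the same libraries, was 0.259 over 11712 genes. Intron counts were small for Nqo1 (27 to 60 reads per library) and Keap1 (25 to 103), which limits what they can show. Between members, 1 of 45 pairs passed on intron reads: Hmox1 with Txnrd1 had an r of 0.899 (adjusted permutation p = 0.0391), a rho of 0.879 (adjusted permutation p = 0.0729) and an r of 0.774 without male replicate 3 and female replicate 5. The 3 pairs that passed on exon reads did not pass on intron reads: r was 0.225 for Nqo1 with Hmox1, 0.131 for Nqo1 with Txnrd1 (adjusted permutation p = 0.922 each) and 0.645 for Hmox1 with Gclc (0.396). Their rho was 0.261, 0.188 and 0.673 (adjusted permutation p = 0.918, 0.918 and 0.545). Keap1 with Txnrd1 had an intron r of 0.231 and a rho of 0.261 (adjusted permutation p = 0.922 and 0.918), opposite in sign to the exon r of -0.80. Between the sexes the intron counts gave a log2 fold change of -0.34 for Hmox1 (SE 0.16) and -0.19 for Txnrd1 (SE 0.09), and no member passed after adjustment by edgeR.

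The wider pathway was read from 7 related lists, of which 100 of 111 genes were tested. None was called by edgeR, DESeq2 or limma-voom. At an unadjusted p under 0.05 by edgeR 2 were higher and 4 lower in females, beside 2.99% and 4.44% of all tested genes. Of the 100 log2 fold changes 48 were positive and 52 negative, beside 48.7% negative over all tested genes. Among the 17 regulators and partners of NRF2, Mafg, a small MAF protein that pairs with it, was at 93.3 ± 7.84 CPM in males and 102.0 ± 4.95 CPM in females (SD, n = 5 each, log2 fold change 0.13, edgeR adjusted p = 0.664). Bach1, which competes for the same sites and represses Hmox1, had a log2 fold change of 0.14 (edgeR adjusted p = 0.763). Per length the most abundant of this list were Sqstm1 (154 CPM per kb), whose protein p62 binds KEAP1, and the related factor Nfe2l1 (69.7 CPM per kb).

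Of the 20 tested genes that use or recycle glutathione, 9 were positive and 11 negative. Gss, which adds glycine in the last step of glutathione synthesis, was at 38.9 ± 3.81 CPM in males and 33.2 ± 1.87 CPM in females (log2 fold change -0.23, SE 0.07, edgeR adjusted p = 0.402). Gsto1 (299 CPM per kb) and Gpx1 (156 CPM per kb) were the most abundant. Of the 16 thioredoxin and peroxide genes none had an unadjusted p under 0.05 by edgeR, and Txn1 at 182 CPM per kb was the most abundant. Among the 8 genes that supply NADPH, Idh2 had a log2 fold change of 0.17 (edgeR adjusted p = 0.626).

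Of the 10 heme and iron genes, 7 were negative, beside 48.7% of all tested genes. Slc48a1, a heme transporter, was at 98.0 ± 7.43 CPM in males and 83.1 ± 11.4 CPM in females (log2 fold change -0.24, edgeR adjusted p = 0.494). The ferritin genes Fth1 and Ftl1, which store iron, reached 552 and 484 CPM per kb. In the list of detoxification and efflux, 13 of 16 tested genes were negative, with a median of -0.09. Over all tested genes 48.7% were negative and the median was 0.003. Abcc4, an efflux transporter, had a log2 fold change of -0.22 (edgeR adjusted p = 0.432) and Ugdh, which makes UDP-glucuronate, of -0.13 (edgeR adjusted p = 0.640). The list of ATF4, the amino acid response factor that also drives Slc7a11, held 16 genes, Atf4 itself and its targets. Of these 14 were positive and 2 negative, with a median of 0.08, and none had an unadjusted p under 0.05 by edgeR.

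The members also differed in which of these genes they resembled, described here by r over the same 10 libraries, which share their depth and scaling, and with no test. Srxn1 had an r of at least 0.7 with 5 of 8 NADPH genes, where it did so with 7.21% of all other tested genes. They were Tkt (0.905), Idh1 (0.895), Pgd (0.869), Me1 (0.849) and G6pdx (0.770), of which Tkt and Pgd are named after their values were seen. Nfe2l2 had such an r with 4 of the 8 (5.33% of all other tested genes), among them G6pdx (0.914), the entry enzyme of the pentose phosphate pathway. Slc7a11 had such an r with 3 of the 8 (4.96% of all other tested genes). Idh2, the mitochondrial isocitrate dehydrogenase, had an r of -0.90 with Hmox1, -0.86 with Txnrd1, -0.79 with Nqo1 and -0.75 with Gclc. Ugdh had an r of 0.915 with Nqo1, 0.900 with Txnrd1 and 0.857 with Hmox1, and was also named for its low p between the sexes.

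Txnrd1 had an r of -0.7 or less with 7 of the 16 genes of the ATF4 list, including Slc3a2 (-0.91) and Atf4 itself (-0.87), beside 5.44% of all other tested genes. Keap1 ran the other way, with an r of at least 0.7 for 5 of the 16, including Slc3a2 (0.831) and Atf4 (0.780), beside 3.14% of all other tested genes. Slc3a2, the partner chain of SLC7A11 at the membrane, was named after its values were seen. Slc7a11 and Srxn1 each had an r of at least 0.7 with 3 of the 16, beside 4.96% and 7.21% of all other tested genes. The summed level of the ATF4 list was 1225 and 1261 CPM in male replicates 3 and 5, where Txnrd1 was highest, and 1628 CPM in female replicate 2, where Txnrd1 was lowest.

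Markers of minor cell types moved with some of these genes. Of 6 tested epithelial markers, 3 had an r of at least 0.7 with Txnrd1 (5.52% of all other tested genes) and 1 each with Nqo1 (3.14%) and Hmox1 (3.59%). The summed level of the 10 listed was 181 and 167 CPM in male replicates 5 and 3 and ranged from 101 to 181 CPM in males and from 91.2 to 133 CPM in females, most of it Krt19. The defining epithelial genes Epcam (0 to 15 reads per library) and Cdh1 (0 to 13 reads) were at or near 0, and the markers did not share a direction: log2 fold changes, female minus male, were 0.81 for Krt8 and 0.30 for Krt18 against -0.31 for Krt19, -0.89 for Krt7 and -0.78 for Msln, with none passing the edgeR test. Of 13 tested macrophage markers, 5 had an r of -0.7 or less with Srxn1 (7.01% of all other tested genes) and 2 each with Nfe2l2 (5.82%) and Hmox1 (2.66%). The log2 fold changes of all 13, female minus male, were positive by edgeR, Ptprc being negative by limma-voom, and none passed the edgeR test, with 1 at an unadjusted p under 0.05 and 0 called by DESeq2 or limma-voom. Their summed level, led by Lyz2, was 77.7 to 118 CPM in males and 64.8 to 164 CPM in females, the highest being female replicate 5, where Nfe2l2, Hmox1, Gclc, Gclm and Srxn1 were lowest. Of the fibroblast markers, 5 of 12 had an r of -0.7 or less with Txnrd1 (5.44% of all other tested genes). The part of these fractions in the relations among members was not tested, and in bulk RNA fewer cells of a type and less RNA per cell cannot be told apart. Red blood cell markers, listed because of heme metabolism, summed to between 0.439 and 0.788 CPM, and 0 of 8 passed the filter on low counts.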

How the data were processed

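The authors deposited 1 table with whole-number read counts per gene and library; the submitters' processing notes name the build mm10, while aligner, counter, strand and annotation were each not given in the sources used here. Unique exon reads were the level; total exon, unique gene and unique intron reads were alternatives, the last added after the data were seen. The authors' deposited table also gives their own p-values, false discovery rates and a signed fold score, from a test that the file headers call EDGE with tagwise dispersions. No other use was made of 90 value columns of the libraries.

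Counts were tested with edgeR 4.0.16 (R 4.3.3; TMM scaling, filterByExpr with a minimum count of 10, robust quasi-likelihood fit on sex, two-sided, Benjamini-Hochberg over 13615 genes). CPM are TMM-scaled; correlations used log2 CPM with a prior count of 2, with 100000 permutations (within sex where sex means were subtracted), in Python 3.11.15 with numpy 2.4.6, scipy 1.17.1 and pandas 2.3.3. DESeq2 1.42.0, limma 3.58.1 (voom), other scalings and filters, a replicate block, counts without 2 genes that hold ribosomal RNA reads, and leaving out each library were alternatives. The fit was tested on simulated data. Intervals of fold changes are 95%.

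The members and lists were chosen with earlier results of these data known. Genes named were all members; from each related list up to 4 with the smallest p and the 2 most abundant per length; the 5 genes most like the mean target z-score; and the most abundant marker of each other cell type.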

Additional observations from a re-analysis of the deposited data

Results flagged for a closer look

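The summed level of the 10 endothelial markers was 173 CPM in male replicate 5 and lay between 144 and 151 CPM in the other 4 male libraries, so that library stood far from the others of its sex. Most of the sum was Flt1, Kdr and Eng, while Pecam1 (0 to 9 reads per library) and Tie1 (0 to 2 reads) were at or near 0. Erg, with 14 to 92 reads per library, was the 1 marker of the list called between the sexes, beside 0.118% of all tested genes. It was at 2.03 ± 0.70 CPM in males and 0.62 ± 0.11 CPM in females (SD, n = 5 each, log2 fold change -1.69, edgeR adjusted p = 0.0177). The 8 tested markers did not share a direction: 4 log2 fold changes, female minus male, were positive and 4 negative. Flt1, the highest of them in CPM, was at 0.53 and was not called (edgeR adjusted p = 0.561). Male replicate 5, in its endothelial sum, was the 1 such library among 42 groups of 5 values examined, in which chance alone gives about 2.1.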

How the results depend on the processing

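No member and no gene of the related lists was called by sex under any of the 21 alternatives. Over all genes, 46 were called with no filter on low counts (11 higher and 35 lower in females), 87 with DESeq2 (16 and 71), and 6 lower with limma-voom. With the replicate number as a block, 79 were called (18 and 61); the labels do not say if the number marks a shared source. Deviations of same-numbered libraries correlated at 0.20, 0.08, 0.12, 0.03 and 0.29, all positive but not all above 0.1, and not every library was most like its own number, so the libraries were not treated as pairs, and pairing was not settled. With the block, the smallest adjusted p of a member was that of Nfe2l2, 0.190. Leaving out 1 library gave 10 to 23 calls, 5 to 7 higher and 5 to 16 lower; it was 16 lower without male replicate 1, and 5 lower without male replicate 3 or female replicate 3. The signs of Nfe2l2, Keap1, Nqo1, Hmox1, Gclc and Txnrd1 held in all 21 alternatives. With intron reads they held only in name for Nfe2l2 (-0.00025, SE 0.08) and Keap1 (0.02, SE 0.20). The signs of Slc7a11 (19 of 21), Srxn1 (16), Gsr (18) and Gclm (20) did not hold in all, and none of these 4 was called. Member pairs past the threshold numbered 3, but 8 with total exon reads, where Gclm joined Nqo1, Hmox1 and Gclc, 1 with intron reads (an alternative chosen after seeing the data), 0 with each sex mean subtracted, and 0 to 6 leaving out 1 library (0 without male replicate 3 or female replicate 5, 5 without male replicate 2, 6 without male replicate 5). The median r of target pairs lay between 0.17 and 0.49 leaving out 1 library. The level per kb of Gclc over that of Keap1 was 1.27 with unique and 0.924 with total exon reads, a comparison also chosen after seeing the data. The cause of these changes was not tested. The 5 libraries of each sex and, for Slc7a11, the 163 to 416 unique exon reads per library limit what could be detected.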
